A study of Mus musculus with 10 samples.

Results

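The proteasome genes were read here as the 43 genes of 21959 in the expression table whose symbol begins with Psm and whose pathway annotation holds the KEGG proteasome entry. They comprised 8 alpha and 8 beta genes of the 20S core, the 5 immunoproteasome genes Psmb8, Psmb9, Psmb10, Psme1 and Psme2, 6 ATPase and 11 non-ATPase genes of the 19S particle, 3 further activator or inhibitor genes, 1 assembly chaperone (Psmd9) and 1 retrocopy (Psme2b). Another 8 genes with the same prefix lacked the annotation and 4 annotated genes had other names, and these were kept apart.

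By the study's description the libraries were made from tumors that grew from 4T1 cells, a mouse triple-negative breast cancer line. The cells were injected under the abdominal skin of female BALB/c mice that were 5 to 6 weeks old. The exercise group (E) had voluntary running for 21 days and the non-exercise group (NE) was kept under normal husbandry. There were 5 tumors in each group and 1 library per tumor. Both groups were described as carrying the same cell line, and 1 line in 1 mouse strain is the whole of the model. The identity of the cells was not tested, and values that bear on it are given with the tissue markers below. Total counts ran from 15045613 to 20646763 in the E group and from 18706032 to 23092251 in the NE group. A count in a bulk tumor does not separate fewer cells of a type from less RNA per cell, so those cannot be told apart here.

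The 26S proteasome degrades proteins that carry ubiquitin chains. Its 20S core is a stack of rings of alpha and beta subunits in which Psmb5, Psmb6 and Psmb7 hold the catalytic sites, and its 19S particle binds, deubiquitinates, unfolds and threads the substrate. Interferon gamma, acting in part through IRF1, is known to induce Psmb8, Psmb9 and Psmb10, which replace those catalytic subunits in newly built cores, and the PA28 activator subunits Psme1 and Psme2. The resulting immunoproteasome yields peptides that are loaded on MHC class I, and leukocytes express it without induction.

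Psmb9 and Psmb8 lie in the MHC class II region at chr17:34181987-34187764 (minus strand) and chr17:34197721-34201454 (plus strand) in GRCm38. Psme1 and Psme2 are neighbors at chr14:55578123-55581529 (plus strand) and chr14:55587441-55591113 (minus strand), and the constitutive Psmb5 is on the same chromosome at chr14:54614119-54618022 (minus strand). The promoters of Psmb9, Psmb8 and Psme1, which are induced by interferon, and of Psmb5, a gene driven by NRF1, are shown because the values below compare these kinds of gene. Each runs from 250 bases before to 30 bases after the RefSeq start site, 5′ to 3′ on the gene's strand (GRCm38.p6). Capitals mark the searched motif found in it, a CCAAT box on the opposite strand in Psmb9, a GAS motif in Psmb8, an ISRE motif on the opposite strand in Psme1 and an antioxidant response element (ARE) motif in Psmb5. The windows are chr17:34187301-34187580 for Psmb9, chr17:34197945-34198224 for Psmb8, chr14:55578244-55578523 for Psme1 and chr14:54617966-54618245 for Psmb5. For Psmb9, Psmb8 and Psme1 the gene span given above begins before the window, so these windows lie wholly inside the annotated gene.
Psmb9: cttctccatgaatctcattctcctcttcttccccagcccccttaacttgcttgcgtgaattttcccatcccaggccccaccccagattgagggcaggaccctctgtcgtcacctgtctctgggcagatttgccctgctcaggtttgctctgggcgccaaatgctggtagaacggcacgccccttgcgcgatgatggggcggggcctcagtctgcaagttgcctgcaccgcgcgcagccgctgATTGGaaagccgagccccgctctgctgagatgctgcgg
Psmb8: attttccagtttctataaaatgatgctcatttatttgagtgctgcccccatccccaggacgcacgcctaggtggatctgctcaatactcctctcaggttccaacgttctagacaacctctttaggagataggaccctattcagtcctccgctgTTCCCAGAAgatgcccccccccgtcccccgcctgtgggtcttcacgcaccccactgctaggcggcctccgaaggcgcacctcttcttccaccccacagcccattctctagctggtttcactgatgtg
Psme1: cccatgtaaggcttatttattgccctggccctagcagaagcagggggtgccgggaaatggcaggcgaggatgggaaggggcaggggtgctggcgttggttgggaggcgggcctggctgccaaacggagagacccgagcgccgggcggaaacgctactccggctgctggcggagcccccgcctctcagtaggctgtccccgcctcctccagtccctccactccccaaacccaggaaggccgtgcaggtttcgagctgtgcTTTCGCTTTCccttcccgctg
Psmb5: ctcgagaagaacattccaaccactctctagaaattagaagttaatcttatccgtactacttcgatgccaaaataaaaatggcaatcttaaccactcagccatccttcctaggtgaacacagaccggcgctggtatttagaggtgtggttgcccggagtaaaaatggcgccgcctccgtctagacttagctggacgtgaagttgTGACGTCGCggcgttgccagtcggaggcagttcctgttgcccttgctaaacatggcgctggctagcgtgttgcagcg

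Promoter windows of 300 bases (50 bases after the start site) were given for 36 of the 43 proteasome genes, as 39 windows. The ISRE motif, GAAA followed by 2 bases of any kind and a second GAAA and searched on both strands like all motifs here, stood in 4 of the 39 windows (Psmd4, Psmd9, Psmb3 and Psme1), against 3.44% of 32851 windows of all genes. The GAS letters TTCNNNGAA were in 2 of 39 (Psmd2 and Psmb8), against 8.30% of all windows. The ARE letters TGACNNNGC were in 6 of 39 (Psmb5, Psmb6, Psmc6, Psmd9, Psmd12 and Psme4), against 12.4%. The CCAAT letters were in 13 of 39, Psmb9 among them, against 37.4%. The Psmb9 window shared 275 bases with that of Tap1, a peptide transporter gene that is read from the other strand. A match describes letters only, and a window without one was not read further.

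The mRNA of nearly the whole complex was abundant in every tumor. Psma8, the testis-type alpha gene, had 1 to 10 reads in a tumor and Psmb11, the thymus-specific catalytic gene, had 0 to 3, where 3 reads in the shallowest library correspond to 0.199 CPM (read counts divided by library size, at the usual scale). Those 2 genes did not pass the filter on low counts, and the other 41 were tested among 13517 genes. For levels between genes the count was divided by length. The deposited FPKM (CPM per kilobase of gene length) use a length that covers all exons of a gene, so a level scaled by the length of the principal transcript is given beside it. On the principal scale Psma7, an alpha-ring subunit, was the most abundant at 329.9 ± 22.05 (SD, n = 10 tumors), followed by Psme2 at 266.9 ± 24.6 and Psme1 at 257.1 ± 14.9, and the means of the latter pair lay within 1 SD of each other. The beta-ring genes Psmb4 and Psmb6 followed at 191.3 ± 9.67 and 184.3 ± 9.59.

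By deposited FPKM the order began with Psme2 (145.5 ± 13.4) and Psma5 (143.7 ± 7.42), and Psma7 had 98.2 ± 6.56. The ranks between genes therefore depended on the length used. The lowest tested genes on both scales were Psmd9, a 19S assembly chaperone (4.40 ± 0.258 FPKM), and Psmf1, the PI31 proteasome regulator (6.96 ± 0.747 FPKM). Within the particle the 6 ATPase genes ran from 35.2 (Psmc2) to 113.8 FPKM (Psmc1), the 11 non-ATPase genes from 19.9 (Psmd11) to 88.4 FPKM (Psmd2) and the 7 tested beta genes from 21.2 (Psmb7) to 116.0 FPKM (Psmb4).

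**Figure D1:**
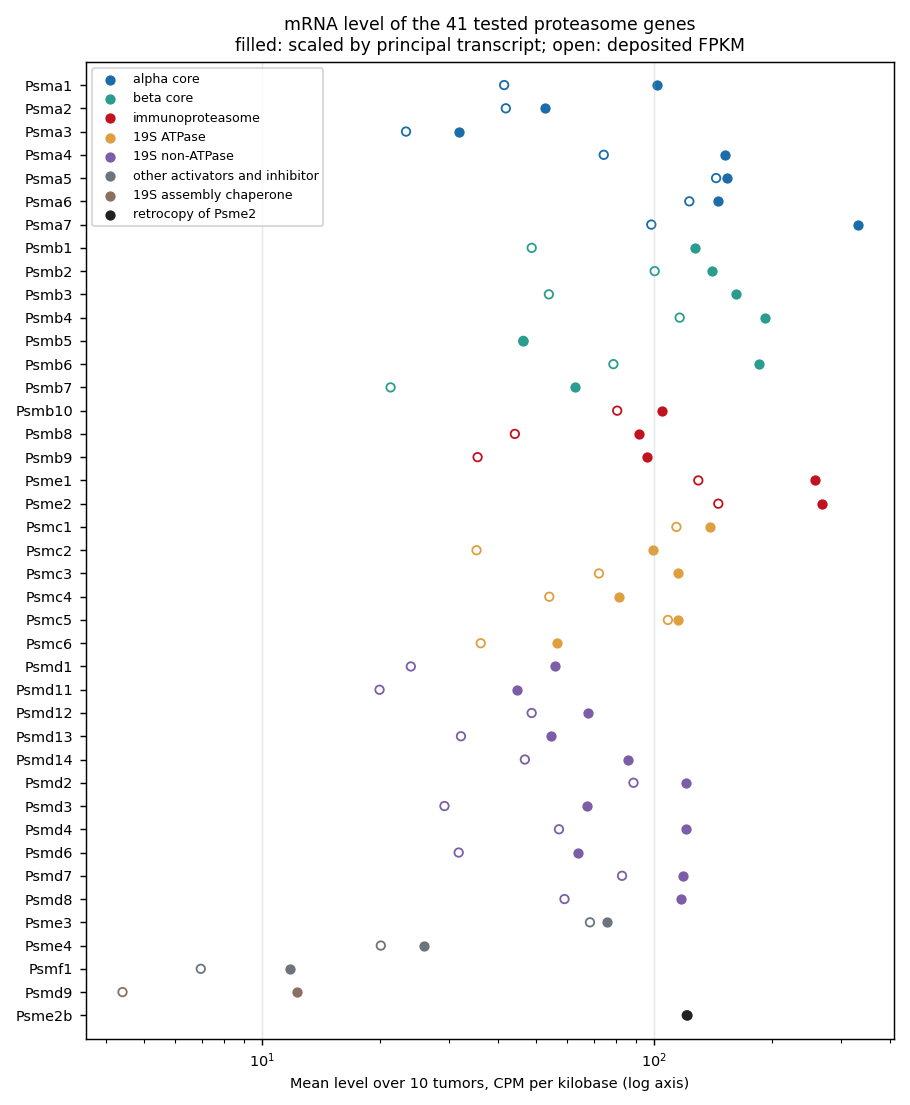
Mean level over the 10 tumors of the 41 tested proteasome genes, in CPM per kilobase on a log axis. Filled points are scaled by the principal transcript and open points are the deposited FPKM, colored by class; Psma7, Psme2 and Psme1 lie furthest right among the filled points (329.9, 266.9 and 257.1).

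The proteasome genes varied little between tumors. Over the 10 tumors the SD of log2(CPM + 1) had a median of 0.098 for the 41 tested genes, and 0.179 for all genes tested, and 38 of the 41 were under the latter. The 41 genes were also more abundant, with a median of 53.8 FPKM against 6.40 for all genes, and genes of like level were not compared. Of the lists read below, the median SD was 0.108 for assembly and associated factors and 0.116 for class I antigen processing genes. It was 0.245 for interferon signaling genes. Psmc1, an ATPase of the 19S base, was the steadiest at 0.043, with 213.0 to 233.3 CPM in all tumors. Psmc6, another ATPase of the same ring, varied most at 0.312. Its CPM were 89.1, 103.9, 149.8, 134.9 and 97.6 in E1 to E5 and 99.8, 158.0, 158.6, 129.1 and 143.2 in NE1 to NE5. E1, E5 and NE1 were the lowest, so the low tumors came from both groups.

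Whether running changed proteasome mRNA in the tumor was asked by comparing the 5 E with the 5 NE tumors. No proteasome gene differed at the limits of a 2-fold change and an FDR of 0.05, where 0% of the 13517 genes were called, by edgeR's quasi-likelihood test, and the smallest FDR over the 41 genes was 0.897. The study's own text does report differentially expressed genes between these groups, and why its count differs from that here was not tested. At an unadjusted p of at most 0.05, 3 proteasome genes were lower in E tumors and 0 were higher, where 2.29% of all genes were lower and 2.57% were higher. The groups did not separate for any of the 41 genes, where they did for 0.725% of all genes. The log2 fold change (E against NE) was under 0 for 39 of the 41 genes, against 54.0% of all genes. Its median was -0.082 over the 41 genes and -0.014 over all genes. These genes share tumors and scaling factors and are not replicates of one another, and scaling by library size alone left 34 of 41 (44.98% of all genes) under 0 with a median of -0.049, against a median of 0.018 for all genes. The E libraries were shallower, and with log2 total count as a covariate 30 of 41 (55.6% of all genes) were under 0, with a median of -0.041. With it 0 had an unadjusted p of at most 0.05 (edgeR), where 0.429% of all genes were lower at that p. With 1 tumor left out the count of 3 became 0 without E2, E5 or NE3 (1.38%, 1.22% and 1.39% of all genes). It was 1 without NE2, NE4 or NE5 (1.89%, 2.26% and 1.83%), 5 without E3 (3.16%) and 10 without NE1 (4.09%).

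The differences were small as well as short of the limits. The log2 fold change was within 0.2 of 0 for 40 of the 41 genes, and for 77.0% of all genes, whose median level was lower (6.40 against 53.8 FPKM). The 95% interval of 40 of the 41 genes lay inside a 1.5-fold change in either direction. The exception was Psmc6, at -0.26 (SE 0.168, 95% interval -0.63 to 0.11, FDR 0.897).

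**Figure D2:**
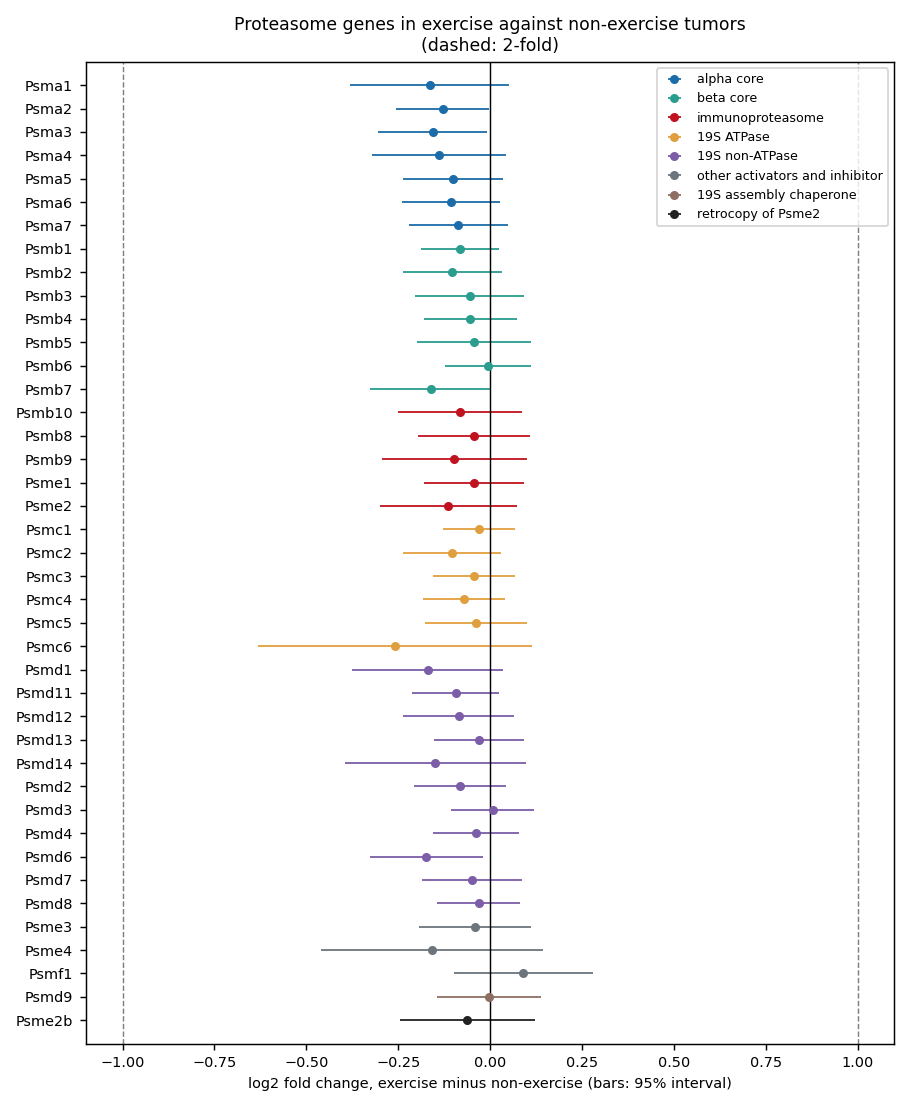
Log2 fold change of each tested proteasome gene, exercise minus non-exercise, with its 95% interval from edgeR's quasi-likelihood fit, colored by class; dashed lines mark a 2-fold change. Of the 41 points 39 lie left of 0 (34 when scaled by library size alone), no interval reaches a dashed line and that of Psmc6 is the widest.

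The alpha subunits form the outer rings and the gate of the core. All 7 tested alpha genes had a log2 fold change under 0, with a median of -0.13, and 2 of them were lower at an unadjusted p of at most 0.05 with edgeR, where 54.0% of all genes were under 0 and 2.29% were lower at that p. These shares of all genes apply to the counts of each class below. Psma3 had 83.0, 81.7, 94.1, 91.6 and 78.4 CPM in E1 to E5 and 86.0, 92.8, 102.6, 99.2 and 97.0 in NE1 to NE5. Its log2 fold change was -0.16 (SE 0.067, unadjusted p = 0.041, FDR 0.897). The E group ran lower, but E3 and E4 were above NE1, so the groups overlapped. Psma2 was at -0.13 (SE 0.057, unadjusted p = 0.045, FDR 0.897). Psma5, highest of the alpha genes by FPKM but uncertain in level, was at -0.10 (SE 0.061).

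The beta subunits form the inner rings, and their 7 tested constitutive genes had a median of -0.055, with 0 at an unadjusted p of at most 0.05. All 7 were under 0 in this fit. In alternative fits Psmb6 turned above 0 in 6 (0.025 with library-size scaling) and Psmb4 and Psmb5 in 1 each. Psmb7, which has the trypsin-like site, had the smallest p of these. It had 71.8, 64.4, 72.3, 70.9 and 63.8 CPM in E1 to E5 and 65.9, 80.0, 80.4, 85.1 and 72.8 in NE1 to NE5, and its log2 fold change was -0.16 (SE 0.074, unadjusted p = 0.053, FDR 0.897). NE1 lay inside the E range and the other NE tumors above it. Psmb5, with the chymotrypsin-like site, had 46.5, 41, 37.7, 41.3 and 38.3 CPM in E and 44.0, 43.2, 38.8, 43.5 and 41.7 in NE, at -0.044 (SE 0.070). Psmb6, with the caspase-like site, had 162.5, 148.4, 138.5, 144.5 and 139.9 CPM in E and 149.6, 147.8, 142.7, 151.1 and 145.7 in NE, at -0.0063 (SE 0.053). For both genes E1 was the highest of all tumors and E3 the lowest, so the E group enclosed the NE group. The highest beta gene, Psmb4, a non-catalytic subunit, was at -0.053 (SE 0.057).

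Among the immunoproteasome genes Psme1 and Psme2 were near the top of the complex on both scales, and Psmb8 and Psmb9, at 44.1 ± 3.11 and 35.4 ± 3.44 FPKM (SD, n = 10), were below the median of 53.8 FPKM over the 41 genes. All 5 had log2 fold changes under 0, from -0.11 to -0.043 with a median of -0.082 (4 of them above 0 with total count as a covariate), and 0 of 5 had an unadjusted p of at most 0.05 with edgeR. Psmb8, the inducible counterpart of Psmb5, had 166.7, 148.4, 141.4, 148.4 and 128.8 CPM in E1 to E5 and 148.6, 141.8, 156.8, 151.0 and 157.6 in NE1 to NE5. The E tumors spanned the whole NE range, and the log2 fold change was -0.043 (SE 0.068, FDR 0.939). Psmb9, the counterpart of Psmb6, had 150.4, 125.0, 122.1, 119.9 and 108.8 CPM in E and 123.0, 127.0, 148.0, 143.4 and 128.6 in NE. Its log2 fold change was -0.098 (SE 0.089, FDR 0.897). The highest and the lowest tumor for Psmb9, E1 and E5, were both in the E group.

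Psmb10, the counterpart of Psmb7, had 150.2, 140.2, 115.2, 134.6 and 125.7 CPM in E and 128.4, 135.4, 147.9, 144.9 and 148.0 in NE, at -0.082 (SE 0.076, FDR 0.897). Again the E group held both the highest and the lowest tumor. Psme1, the PA28 alpha subunit, had 305.5, 295.0, 273.4, 274.3 and 259.7 CPM in E and 276.5, 270.3, 306.4, 295.0 and 302.9 in NE, at -0.044 (SE 0.061, FDR 0.933). Psme2, PA28 beta, had 280.1, 256.8, 225.8, 253.8 and 217.4 CPM in E and 247.3, 239.4, 292.0, 283.6 and 272.3 in NE, at -0.11 (SE 0.085, FDR 0.897). In the E group replicate 1 was highest for each of these 5 genes, and their deviations from the gene means averaged 0.15 on the log2 scale in E1, -0.19 in E5 and 0.14 in NE3. The retrocopy Psme2b, which shared 69.3% of its 50-base words with other genes, mainly Psme2, was at -0.062 (SE 0.083) and is uncertain, as is Psme2, with 28.3% shared.

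Each catalytic immunoproteasome gene was then set against the constitutive gene whose place its product takes. The log2 ratio of FPKM of Psmb8 to Psmb5 was -0.072 ± 0.057 (SD, n = 5) in E and -0.072 ± 0.124 in NE, with a difference of -0.00035 (exact two-sided permutation test, p = 1.0). That of Psmb9 to Psmb6 was -1.20 ± 0.094 in E and -1.11 ± 0.132 in NE, a difference of -0.094 (exact permutation p = 0.238). That of Psmb10 to Psmb7 was 1.96 ± 0.174 in E and 1.88 ± 0.117 in NE, a difference of 0.073 (exact permutation p = 0.437). Adjusted over the 3 ratios the exact permutation p-values were 1.0, 0.655 and 0.655, where 5 against 5 tumors can give no p under 0.00794. The differences were no larger than the spread between tumors, and the sign of the first turned when 1 tumor was left out (-0.032 to 0.043, above 0 without E5, NE3 or NE5).

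Scaled by principal transcripts, Psmb8 made up 66.4% ± 0.888 (SD, n = 5) of the sum of itself and Psmb5 in E tumors and 66.4% ± 1.90 in NE tumors. The share of Psmb9 in its pair was 33.4% ± 1.45 in E and 34.9% ± 2.09 in NE, and that of Psmb10 was 63.1% ± 2.84 and 61.9% ± 1.90. By deposited FPKM the same shares were 48.8% and 48.8%, 30.3% and 31.7%, and 79.5% and 78.7%. So the immunoproteasome mRNA exceeded the constitutive one for Psmb10 on both scales, was below it for Psmb9 on both scales, and for Psmb8 the order depended on the gene length. Psmb5 shared 54.1% of its 50-base words with other genes, mainly the gene model Gm3375, so its level is uncertain. Exons of Psmb9 overlapped Tap1 by 212 bases on the opposite strand, those of Psmb8 overlapped the antisense gene Gm20496 by 498 bases, and those of Psmb7 overlapped Nek6 by 405 bases. The strand setting of the counting is not given in the sources used here.

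**Figure D3:**
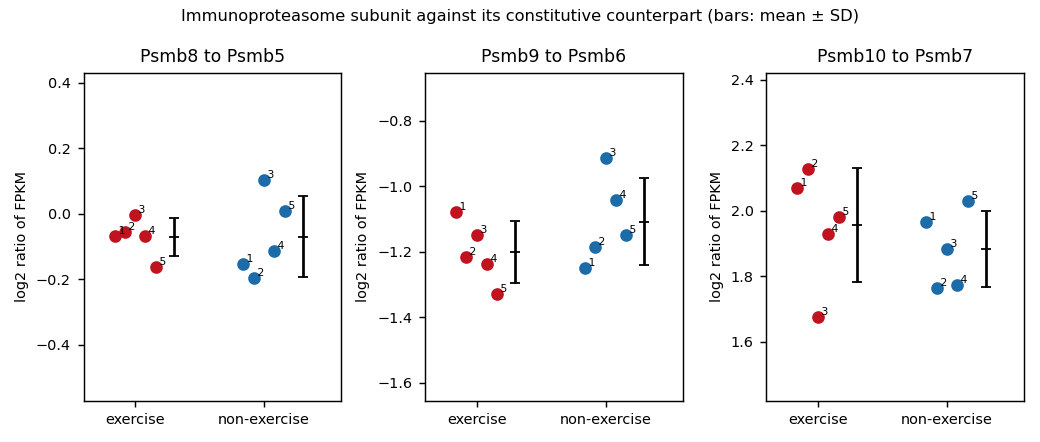
Log2 ratio of the FPKM of each inducible catalytic gene to its constitutive counterpart in the 5 exercise (red) and 5 non-exercise (blue) tumors, numbered by replicate, with mean ± SD. Each panel spans 1 log2 unit around its own center; the groups overlap in all 3 panels.

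The ATPase ring of the 19S base unfolds the substrate. Its 6 genes had log2 fold changes under 0 with a median of -0.057, and 0 had an unadjusted p of at most 0.05 by edgeR. Psmc1 turned above 0 in 3 alternative fits (0.0018 with library-size scaling). Psmc2 had the smallest p, at -0.10 (SE 0.060, unadjusted p = 0.115), and Psmc1, the highest by FPKM, was at -0.029 (SE 0.044). The 11 non-ATPase genes comprise scaffold subunits (Psmd1, Psmd2), ubiquitin receptors (Psmd4) and the lid with its deubiquitinase Psmd14, and 10 of the 11 were under 0 with a median of -0.081. Psmd6, a lid subunit, had the smallest p of all proteasome genes. It had 81.4, 79.7, 90.2, 85.7 and 80.4 CPM in E1 to E5 and 83.4, 89.2, 102.4, 104.2 and 91.6 in NE1 to NE5. The log2 fold change was -0.17 (SE 0.069, 95% interval -0.33 to -0.020, unadjusted p = 0.030, FDR 0.897). NE1 and NE2 lay within the E range. Psmd2, the highest by FPKM, was at -0.081 (SE 0.057) and Psmd11, the lowest, at -0.094 (SE 0.054). Psmd3, a lid subunit, was the only one of the 11 above 0, at 0.0069 (SE 0.051).

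Among the other regulators, Psme3, the nuclear PA28 gamma activator, had 233.4, 190.8, 185.3, 188.9 and 196.8 CPM in E and 213.9, 195.6, 208.1, 209.9 and 196.1 in NE, at -0.041 (SE 0.069). Psme4, the PA200 activator, ranged from 119.9 to 188.6 CPM in E and from 136.3 to 201.2 in NE, at -0.16 (SE 0.136). Psmf1 was the other of the 2 genes above 0. It ranged from 42.1 to 49.3 CPM in E and from 37.1 to 50.7 in NE, at 0.091 (SE 0.086, FDR 0.897). None of the 3 had an unadjusted p of at most 0.05 with edgeR, where 4.86% of all genes had one.

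Genes that build, equip or regulate the proteasome were read from a separate list, which shares Psmd9 with the 41 genes. Of its 21 tested assembly and associated factors 20 had a log2 fold change under 0 (54.0% of all genes), with a median of -0.069, and 2 were lower at an unadjusted p of at most 0.05 (2.29% of all genes). These were the deubiquitinase Uchl5, at -0.26 (SE 0.097, unadjusted p = 0.021, FDR 0.897), and the core maturation factor Pomp, at -0.15 (SE 0.066, unadjusted p = 0.043, FDR 0.897), both by edgeR. Psmg4, an assembly chaperone of the core, was the 1 gene of the list whose groups did not overlap (0.725% of all genes), with 7.62 to 9.59 CPM in E and 9.60 to 11.4 CPM in NE, at -0.22 (SE 0.102, unadjusted p = 0.055, FDR 0.897). It had only 143 to 255 reads per tumor, and E2 (9.594 CPM) and NE2 (9.596 CPM) were almost equal. Their order depended on their scaling factors (1.023 for E2 and 0.992 for NE2). Nfe2l1, the transcription factor NRF1 that drives proteasome genes when the proteasome is inhibited, was at -0.032 (SE 0.107). Downstream of the immunoproteasome, 5 of 11 class I antigen processing genes were under 0 and 1 had an unadjusted p of at most 0.05, namely Tapbpl, a peptide editor, at -0.20 (SE 0.075, unadjusted p = 0.022, FDR 0.897 by edgeR). Tap1 and Tap2, which carry peptides into the endoplasmic reticulum, were at -0.034 (SE 0.095) and -0.071 (SE 0.069), and B2m, the class I light chain, at -0.062 (SE 0.113). Upstream of it, 4 of 10 interferon signaling genes were under 0 and 0 had an unadjusted p of at most 0.05, with Irf9 at 0.18 (SE 0.114) having the smallest. Ifng, the inducer itself, was at 0.10 (SE 0.458) and Irf1 at -0.085 (SE 0.108).

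Across the 10 tumors, whatever the group, Psmb9 was compared with other genes and 2 further pairs were compared, on log2(CPM + 1), with p-values adjusted over the 6 relations tested, of which 5 are given. Irf1, a transcription factor that binds interferon response elements, had 436.2, 324.5, 337.4, 318.3 and 295.2 CPM in E1 to E5 and 361.6, 336.7, 420.8, 362.8 and 333.7 in NE1 to NE5. E1 and NE3 were highest and E5 lowest for both genes. The Pearson r of Psmb9 with Irf1 was 0.911 (permutation p = 0.00038, adjusted p = 0.00228) and Spearman's rho was 0.806 (permutation p = 0.00645, adjusted p = 0.0387). Without E1 and NE3, the tumors farthest from the median of Irf1, r was 0.798 (n = 8, permutation p = 0.0288), and with any 1 tumor left out it was 0.879 to 0.944.

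E1 also had the highest Ifng value, 7.61 CPM, against 1.21 to 4.19 CPM in the other tumors. With Ptprc, which encodes the leukocyte antigen CD45, r was 0.204 (permutation p = 0.578, adjusted p = 0.581) and rho was 0.212 (permutation p = 0.559, adjusted p = 0.559). Without E1 and NE1, r was 0.586 (n = 8, permutation p = 0.124).

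With Psmb6, its constitutive counterpart, the r of Psmb9 was 0.622 (permutation p = 0.0521, adjusted p = 0.104) and rho was 0.576 (permutation p = 0.0884, adjusted p = 0.177), and r was 0.386 (n = 8, permutation p = 0.348) without E1 and E3. With 1 tumor left out it was 0.398 to 0.848 and passed 0.05 without NE1 (permutation p = 0.0465, n = 9) or NE3 (permutation p = 0.00591). Psmb5 of the core with Psmd14 of the lid gave an r of -0.361 (permutation p = 0.297, adjusted p = 0.446) and a rho of -0.273 (permutation p = 0.448, adjusted p = 0.538), with r = -0.253 (n = 8, permutation p = 0.543) without NE3 and NE5. Psmb6 with the muscle gene Acta1 gave an r of 0.189 (permutation p = 0.581, adjusted p = 0.581) and a rho of 0.358 (permutation p = 0.313, adjusted p = 0.470), with r = 0.410 (n = 8, permutation p = 0.323) without NE1 and NE4.

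**Figure D4:**
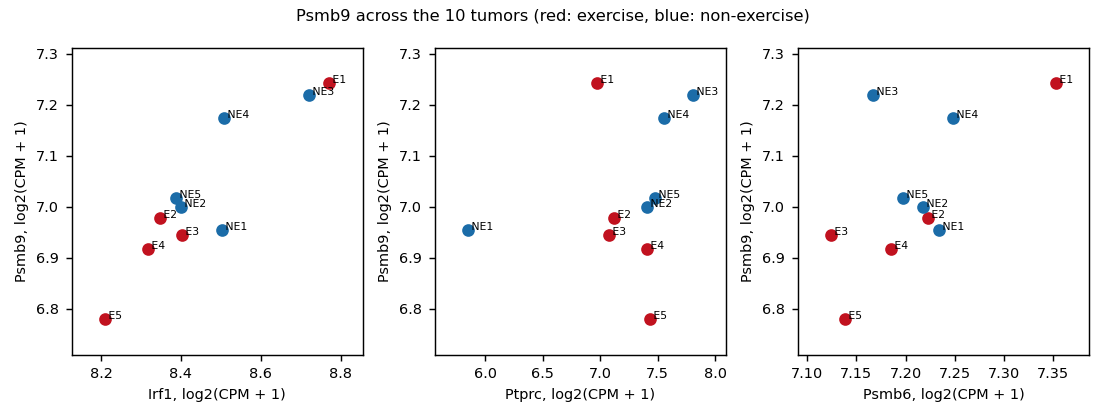
Psmb9 against Irf1, Ptprc and Psmb6, each as log2(CPM + 1), in the 10 tumors (red exercise, blue non-exercise). E1 and NE3 are at the upper right and E5 at the lower left of the Irf1 panel (r 0.911), NE1 lies far left in the Ptprc panel (r 0.204), and both groups spread along the Irf1 relation.

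The proteasome genes differed among themselves in how they followed the GC content of their principal transcript, which ran from 37.0% (Psmc6) to 58.3% (Psmd3) over the 41 tested genes. In E1 the deviations of the 41 genes from their means had an r with GC content of 0.791 over genes, and in E2 of 0.751. In E3 it was -0.755 and in NE2 -0.675, and NE4 had 0.0344. Genes are not independent replicates, so these r values are a description. Over all genes tested the r had the same sign in each tumor and was 0.489 in E1, 0.164 in E2, -0.276 in E3, -0.329 in NE2 and 0.0724 in NE4. The tumors of positive and of negative r were found in both groups.

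The fold changes followed the same property. Their r with GC content was 0.683 over the 41 genes, 0.612 without Psmc6, and 0.0513 over 13487 genes with a GC value. The 9 proteasome genes with a GC content under 45% were Psmc6, Psma1, Psma2, Psma3, Psma4, Psmb1, Psmd12, Psmd14 and Psme4. Their log2 fold changes ran from -0.26 (Psmc6) to -0.082 (Psmb1), with a median of -0.15, and their median SD was 0.143. In this low-GC set Psmd14 had 118.8, 112.0, 148.5, 130.7 and 115.7 CPM in E1 to E5 and 111.3, 149.2, 157.8, 125.2 and 150.0 in NE1 to NE5, and its log2 fold change was -0.15 (SE 0.111). Its low tumors E1, E2, E5 and NE1 were those with a positive r above 0.3. Psmd14 is itself 1 of the 41 genes that set these r values, so the match is partly built in. The 32 genes with a GC content of at least 45% had a median log2 fold change of -0.054 and a median SD of 0.0936. After a GC trend was removed from each tumor, 40 of the 41 genes (51.3% of all genes) were under 0, with a median of -0.070 and an r of 0.283. Of the 41, 2 had an unadjusted p of at most 0.05 (edgeR), where 2.92% of all genes were lower at that p. The 5 immunoproteasome genes had 52.8% to 56.5% GC. Of the pairs compared across tumors above, Psmb5 and Psmd14 had 56.6% and 43.2% GC, and Psmb9 and Psmb6 had 55.3% and 55.8%. Irf1 had 52.8%, Ptprc 41.4% and Acta1 57.0%. The part of base composition in those relations, or in the values of single genes beyond the removed trend, was not tested.

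**Figure D5:**
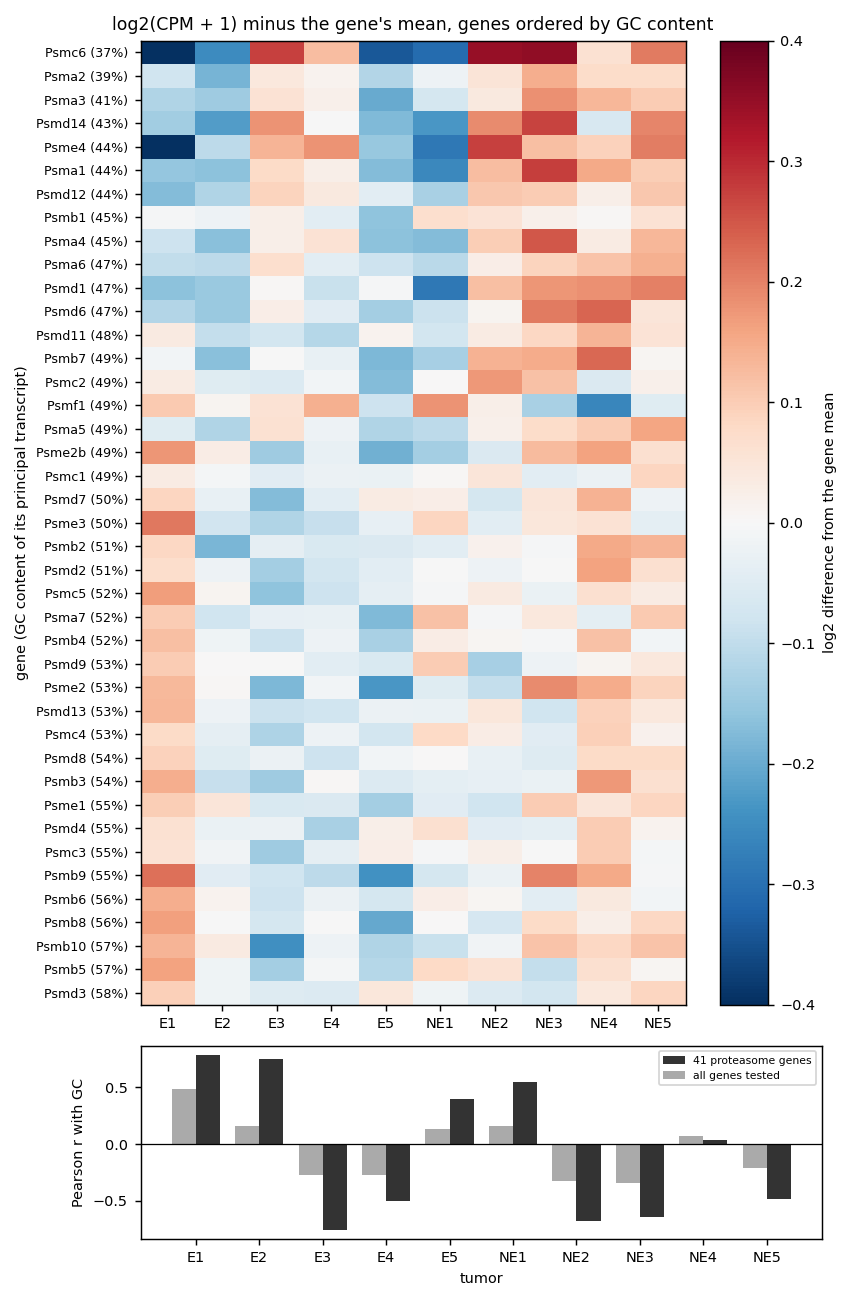
Upper panel, log2(CPM + 1) of the 41 tested proteasome genes minus each gene's mean, by tumor, with genes ordered from the lowest GC content at the top (Psmc6, 37.0%) to the highest (Psmd3, 58.3%) and colors saturating at 0.4. Lower panel, Pearson r over genes between these differences and GC content for the proteasome genes (dark) and for all genes tested (light), which share their sign in every tumor and reach 0.791 and 0.489 in E1.

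The tumors also differed in other tissue. The summed CPM of 8 skeletal muscle markers ran from 278.2 to 3723 in E and from 5.39 in NE1 to 25668 in NE4. The sum of 12 leukocyte markers ran from 632.5 to 1168 CPM in E and from 337.1 in NE1 to 982.2 in NE, and that of 6 fibroblast markers from 2177 to 15363 in E and from 964.8 to 4932 in NE. The sum of 6 epithelial markers of a mammary carcinoma ran from 19.7 to 28.8 CPM in E and from 25.1 to 101.7 in NE. Among them Krt8 was at 0.00 to 1.24 CPM, Epcam at 0.524 to 3.13 CPM, Krt18 at 0.085 to 2.20 CPM and Krt14 at or under 0.622 CPM except for 54.1 CPM in NE5. Cdh1 was at 6.82 to 20.6 CPM and Krt19 at 8.42 to 23.6 CPM. Krt8, Krt18 and Epcam were thus near 0, and of the 3 tested markers Krt19 (log2 fold change -0.65, unadjusted p = 0.0078) and Epcam (-1.01, unadjusted p = 0.025) had the smallest p by edgeR, each with an FDR of 0.897. Reads of 4 Y-linked genes summed to 12.5 to 63.2 CPM in every tumor, although the mice were described as female. Whether the tumors hold the described cell line and sex was not tested. Without NE1 and NE4 (chosen after seeing the data), 31 of the 41 proteasome genes were under 0 with a median of -0.065, 8 were lower at an unadjusted p of at most 0.05 (edgeR), and 0 had an FDR of at most 0.05, where 46.0% of all genes were under 0 and 4.04% were lower at that p. The part of the cell makeup in the proteasome values was not tested.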

How the data were processed

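Messenger RNA of 10 tumors was sequenced, and groups and replicate numbers came from the sample labels. Alignment by the authors used Hisat2 2.0, with Stringtie 1.3.0 for expression, and their methods name a rat assembly. The deposited table gives whole-number read counts and FPKM per gene; how the counts were obtained and the build are not given in the sources used here. The deposited FPKM equal count over length over total count. The authors' gene length in the table covers all exons.

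The 43 genes and all lists were chosen with earlier results of these data known. Counts were tested with edgeR 4.0.16 (R 4.3.3; TMM, filterByExpr, quasi-likelihood test, Benjamini-Hochberg adjustment over 13517 genes), at the authors' limits of a 2-fold change and FDR 0.05. CPM use TMM factors. DESeq2 1.42.0 and limma 3.58.1 gave alternatives. Ratios and relations were tested over tumors with exact or 100000-draw permutation tests in scipy 1.17.1. The study's text speaks of matched pairs of tumors without saying what was matched, and the labels do not tie same-numbered tumors, so the fit has no pair term and p-values measure the spread between these tumors. On simulated counts of 13517 genes, 159 of 200 genes changed by 1.2 (log2) were recovered with 5 false calls, at FDR 0.05 alone. These counts were drawn gene by gene, without the GC or tissue differences between the tumors. Of the 41 proteasome genes 40 were within 0.2 of 0, and the recovery of changes that small was not tested. No 2 libraries agreed within sampling noise (lowest chi-square per degree of freedom 7.51).

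Genes named in full were the immunoproteasome genes, their counterparts, Psme3, Psme4, Psmf1, the smallest p and highest and lowest FPKM per class, and fixed pathway genes; Psma2, Psmc6, Psmd3 and Psmd9 were added after their values were seen. GC content, principal transcript lengths, overlaps and shared 50-base words came from the GRCm38 annotation, matched by gene identifier; GC content was found for 13487 of 13517 genes. Promoters came from RefSeq (GRCm38.p6). The floor of 3 reads covers counting error only, and the intervals of fold changes include the spread between tumors. A gene of the interferon list, with its relation to Psmb9, is not reported here.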

Additional observations from a re-analysis of the deposited data

Results flagged for a closer look

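In 2 of 70 groups of 5 tumors 1 tumor stood apart from the rest by Dixon's criterion, which chance does in about 1 of 20 groups, or 3.5 here. Psme3 was at 233.4 CPM in exercise replicate 1, above the 185.3 to 196.8 CPM of the other E tumors. Nfe2l1 was at 480.6 CPM in non-exercise replicate 4, the tumor with the most muscle marker counts.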

How the results depend on the processing

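In every alternative, 0 proteasome genes had an FDR of at most 0.05; DESeq2 called 3 of all genes, none of them at a 2-fold change. The count of proteasome genes lower in E at an unadjusted p of at most 0.05 was 3 of 41 (2.29% of all genes, edgeR). It was 5 with DESeq2 (2.88% of all genes) and 1 with library-size scaling (1.18%). With limma-trend it was 1 on log2(FPKM + 0.1) (1.18%) and 1 on log2(FPKM + 1) (1.19%). It was 16 with limma-voom sample weights (8.21%), 0 with log2 total count as a covariate (0.429%) and 8 without NE1 and NE4 (4.04%). Leaving out 1 tumor gave 0 (without E2, E5 or NE3) to 10 (without NE1, 4.09% of all genes), and 0 to 1 higher. Of all genes 657 had such a p in either direction, against 1800 with sample weights, 122 with the covariate, 1162 without NE1 and NE4 and 372 to 1350 with 1 tumor left out. The causes were not tested.

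Signs of small fold changes turned in some alternatives. With the covariate these were Psmb8 (0.062), Psmb9 (0.035), Psme1 (0.033), Psme2 (0.0038), Psmb6 (0.030), Psme3 (0.017), Psmb4 (0.0086), Psme2b (0.035), Irf1 (0.084), Tap1 (0.10), Tap2 (0.011) and Nfe2l1 (0.080). With library-size scaling they were Psmb6 (0.025), Psmc1 (0.0018) and Nfe2l1 (0.0034). On log2(FPKM + 0.1) they were Psmb6 (0.023), Psmc1 (0.0029), Ifng (-0.085) and Nfe2l1 (0.0084), and on log2(FPKM + 1) Psmb6 (0.023), Psmc1 (0.0029), Ifng (-0.025) and Nfe2l1 (0.0082). With sample weights they were Psmb6 (0.0034), Ifng (-0.60) and Nfe2l1 (0.069), and without NE1 and NE4 Psmb5 (0.012), Psmb6 (0.034), Psme3 (0.015), Ifng (-0.031) and Nfe2l1 (0.11). B2m (0.021) turned with the GC trend removed. With 1 tumor left out, the fold changes of Psmb8 (-0.088 to 0.000084), Psmb6 (-0.040 to 0.014), Ifng (-0.48 to 0.31), Tap1 (-0.11 to 0.013), B2m (-0.15 to 0.00017) and Nfe2l1 (-0.076 to 0.073) included 0.

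With 1 tumor left out the log2 ratios ran from -0.032 to 0.043 (Psmb8 to Psmb5), -0.13 to -0.045 (Psmb9 to Psmb6) and 0.031 to 0.14 (Psmb10 to Psmb7). The r of Psmb9 ran from 0.879 to 0.944 with Irf1, 0.0258 to 0.360 with Ptprc and 0.398 to 0.848 with Psmb6, that of Psmb5 with Psmd14 from -0.576 to -0.231 and that of Psmb6 with Acta1 from 0.0812 to 0.439. Psmb9 with Psmb6 had r = 0.643 (permutation p = 0.0465) in residuals from the group means, and passed 0.05 without NE1 (r = 0.660) or NE3 (r = 0.848). Psmb6 with Acta1 had r = -0.0256 with library-size scaling and -0.0193 on log2(FPKM + 1).

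The r of deviations from the group means was -0.325 to 0.316 between same-numbered tumors and -0.665 to 0.658 between the others. These ranges overlap, so they cannot tell whether same-numbered tumors were matched. With the replicate block, 3 proteasome genes were lower at an unadjusted p of at most 0.05 (edgeR), against 2.47% of all genes. Of all genes 714 had such a p in either direction and 0 were called, and Ifng turned to -0.17. Pairs are named in the study's text, but not which tumors form them.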
